A study of Rattus norvegicus with 27 samples.

Results

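The heat shock proteins and chaperones examined here were 10 rat genes, 5 of them taken as inducible forms (Hspa1b, Hsph1, Hspb1, Dnajb1 and Hsp90aa1) and 5 as constitutive forms (Hspa8, Hsp90ab1, Hspa5, Hspd1 and Hspe1). They were located among the 36865 rows of a read count table by NCBI gene ID, using the IDs that the RefSeq gene list pairs with their symbols. Of the 10 genes, 9 had a row of their own and 8 of these had reads, namely 3 inducible and 5 constitutive forms. Hspa1b, a stress-induced Hsp70 gene, had no row under its gene ID. The gene list does not name 8708 of the rows, 117 of them with reads, and whether one of these holds Hspa1b under another ID was not tested. Hspb1, a small heat shock protein, was listed at 0 in all 27 libraries. So were Hspa1a, Cryab and Clpp of the wider chaperone lists, and these genes are given only as listed at 0. Of all 36865 rows, 21787 were at 0 in every library. Whether a 0 here means no expression or reads that were not counted was not tested. The inducible forms that could be read by name were Hsph1, Dnajb1 and Hsp90aa1.

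Each library was made from the prefrontal tissue (medial prefrontal cortex, mPFC) of 1 rat, and the 27 rats were male and of the Wistar strain. They belonged to a study of trait anxiety built on repeated tests of avoidance in a maze, an arena and a box with a lit side. The male Wistar rats of that study came in more than 1 cohort, and the labels do not say which cohort a library belongs to. All animals were sampled undisturbed, straight out of their home cages, so there was 1 group without a control group, and the anxiety scores of single rats were not used here. The labels name learned helplessness as the treatment and a TruSeq kit, whereas the study's methods describe the anxiety tests and a NEBNext Ultra II kit. Comparisons are therefore between genes and across rats, and p-values measure only the spread between these 27 rats.

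Total counts lay between 4907255 and 12771309 reads per library (median 8168801), and they separated with the number in the library name. The 16 libraries numbered up to 31 had 4907255 to 8568317 reads and the 11 libraries from 32 on had 9404220 to 12771309, without overlap, and these are called the depth blocks. What the library numbers stand for is not given in the sources used here. All 6 neuronal markers checked (Rbfox3, Slc17a7, Syt1, Snap25, Gad1, Gad2) had reads in every library, and Snap25 ranged from 19462 to 28230.1 normalized counts. Library 3 stood apart: its neuron marker score, the mean z score of these 6 genes, was −2.10 while the other 26 libraries lay between −0.93 and 0.76, and its oligodendrocyte marker score of 2.31 was the highest of the 27. The fits, the pairs and the nearest genes were also run without library 3, and calls of heat shock genes that end without it are named. Those of the wider lists are named only in part. In homogenized tissue, fewer cells of a type and less RNA per cell cannot be told apart.

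Heat shock proteins bind unfolded or partly folded proteins and help them to fold, to assemble or to be degraded. Hsp70 proteins (Hspa genes) work in cycles of ATP hydrolysis with J-domain partners such as Dnajb1 and with nucleotide exchange factors such as Hsph1, Hsp90 proteins act late in the maturation of kinases and steroid receptors, and Hspd1 with its lid Hspe1 forms the folding chamber of mitochondria. Upon proteotoxic stress heat shock factor 1 binds heat shock elements, while unfolded protein in the endoplasmic reticulum (ER) induces Hspa5 and its partners through ER stress elements. Neurons carry high constitutive levels of several of these proteins, and immediate early genes such as Fos and Arc are used as marks of recent neuronal activity.

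The promoters are shown because heat shock factor 1 and the ER stress response act on these genes through elements in them. RefSeq windows of 250 bases before a start site (build GRCr8) were at hand for 8 of the 10 genes, all but Hspa1b and Hsp90aa1. A heat shock element was searched as GAANNTTC or TTCNNGAA, each of which reads the same on both strands. At least 1 of the pair of motifs was present in 6 of these 8 windows (Hsph1, Dnajb1, Hspb1, Hspa8, Hspd1 and Hspe1), against 13.5% of 33469 windows of all genes. The 3-unit form GAANNTTCNNGAA, which contains both shorter motifs, was present on either strand in 4 of 8 (Hsph1, Hspa8, Hspd1 and Hspe1), against 0.663% of all windows. Long elements were thus found before constitutive forms as well as before the inducible Hsph1, whereas the window of the inducible Dnajb1 held only the short form. The stretches with heat shock elements are given 5′ to 3′ along the strand of the gene, with the matched letters in capitals:
Hsph1 (chr12:10427255-10427278, plus strand): tggaatctTTCTCGAAggctcgag
Hsph1 (chr12:10427324-10427352, plus strand): gccgcagaTTCTGGAAAGTTCtcctcagt
Dnajb1 (chr19:41431142-41431160, minus strand): gaggggcgGAAGGTTCtgg
Hspb1 (chr12:26432402-26432431, minus strand): aGAAGTTTCcagatgggggcaGAACCTTCc
Hspa8 (chr8:50080293-50080321, plus strand): gcgagcgtGAAAGTTCCAGAAcgctgcgg
Hspa8 (chr8:50080451-50080479, plus strand): cggaacccTTCTGGAAGGTTCtaagacag
Hspe1 (chr9:64084256-64084285, plus strand): gctcggTTCTAGAACCTTCCGGAAggcccc

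The last of these belongs to both mitochondrial chaperonin genes. Hspd1 and Hspe1 lie head to head on chromosome 9 on opposite strands, and the same 30 bases form part of both windows. The matched letters end 48 bases before the Hspe1 start. On the Hspd1 side they lie within 242 bases before the start used for its window, and inside the span that the gene list gives to the longest form of Hspd1 (64073610 to 64084332).

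The ER stress element was searched as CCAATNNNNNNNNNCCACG on both strands and was present in 0.0657% of all windows. Of the 8 heat shock gene windows only that of Hspa5 held it, and 6 of the 15 windows of the ER chaperone list, in which Hyou1 has more than 1 window, did (Hsp90b1, Creld2, Canx, Xbp1, Dnajc3 and Calr). It is shown for Hspa5 and for 3 of these genes, chosen after their values were seen because they were called higher with the Hspa5 level across rats. The other 3 with the element (Canx, Creld2 and Dnajc3) were not called, the windows of Pdia4 and Dnajb11, which were called, did not hold it, and no window was at hand for Pdia3, Pdia6 and Manf, which were called too:
Hspa5 (chr3:38452968-38452996, plus strand): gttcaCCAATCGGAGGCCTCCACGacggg
Hsp90b1 (chr7:23012446-23012474, minus strand): caaacCCAATCGAAAGGAGCCACGcttcg
Calr (chr19:40213130-40213158, plus strand): caacgCGTGGTCGACCCTGATTGGcccag
Xbp1 (chr14:84604553-84604581, plus strand): acaggCCAATCGCAGACGGCCACGaccct

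The cAMP response element TGACGTCA, through which neuronal activity reaches many immediate early genes, was present in 1.59% of all windows. Hsp90ab1 was the one heat shock gene with a match, which overlaps the first bases of the span the gene list gives to Hsp90ab1. Of the 9 immediate early genes with a window, 2 held it (Dusp1 and Ier2) and none held a heat shock element. A match says only that these letters are there, and its absence only that they are not in this window.

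The 3 measured inducible forms differed in how much they varied between resting rats. Levels are counts divided by DESeq2 size factors. Hsph1, the Hsp110 exchange factor of Hsp70, had a lowest value of 2941, a median of 3706 and a highest of 4287 normalized counts. Its lowest value was that of library 3 and its highest that of library 12. Dnajb1, the J-domain partner that brings clients to Hsp70, had a lowest value of 739, a median of 911 and a highest of 1001. Its 4 lowest values all came from libraries numbered from 32 on. Hsp90aa1, the stress-responsive cytosolic Hsp90, had a lowest value of 4873, a median of 5788 and a highest of 7311, and it had the largest SD of the log2 level of the 8 genes, with libraries 3, 19, 39 and 54 at the top and 17, 35, 47 and 51 at the bottom. The highest library exceeded the lowest 1.46-fold for Hsph1, 1.35-fold for Dnajb1 and 1.50-fold for Hsp90aa1.

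The 5 constitutive forms spanned a like range of spreads. Hspa8, the constitutive cytosolic Hsc70, had a lowest value of 1429.75, a median of 1657 and a highest of 1822.5 normalized counts, and Hsp90ab1, the constitutive cytosolic Hsp90, a lowest value of 14856, a median of 16652.5 and a highest of 18729. The highest library exceeded the lowest 1.27-fold and 1.26-fold, respectively. Hspa5 (BiP), the Hsp70 of the ER, ranged more widely, from 3780.3 over a median of 4891 to 5736, a 1.52-fold range. Its 4 lowest values were those of libraries 42, 43, 47 and 52, all of the deeper block. Hspd1, the mitochondrial Hsp60, had a lowest value of 1518, a median of 1666 and a highest of 1896, the narrowest range of the 8 at 1.25-fold. Hspe1, the Hsp10 lid of the same chamber, ranged from 494 over a median of 553 to 751, which is 1.52-fold, with library 3 at the top.

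**Figure D1:**
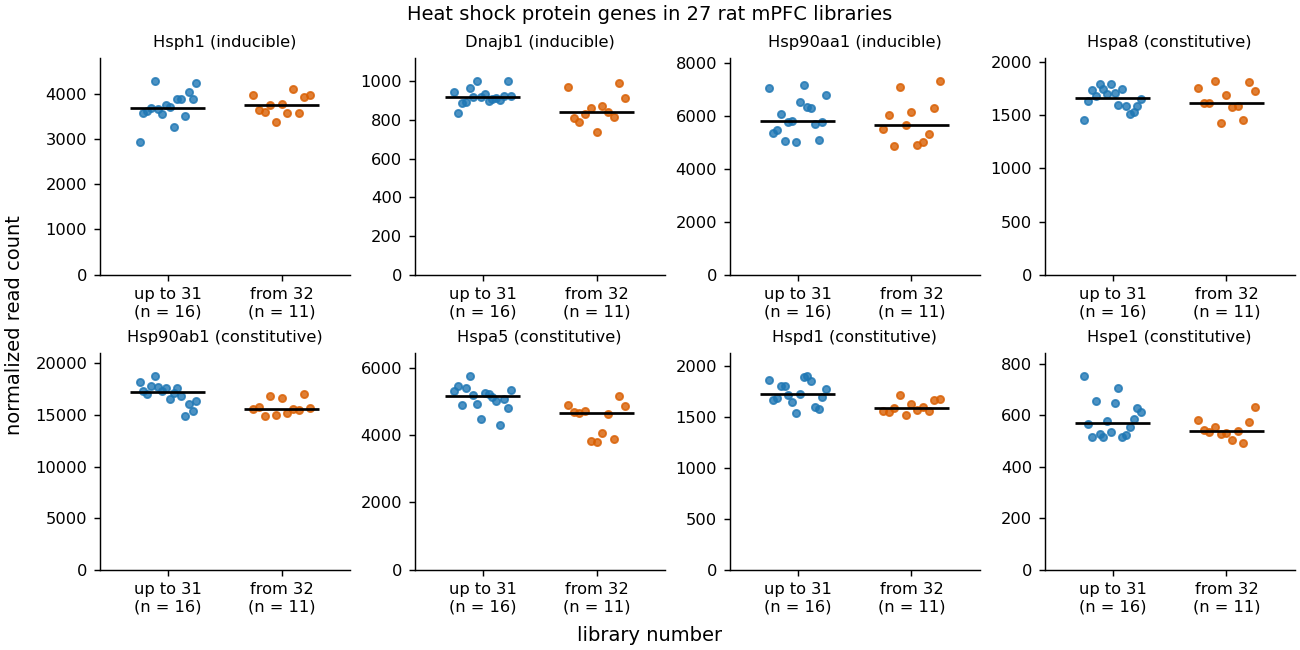
Normalized read counts (vertical axes, starting at 0) of the 8 measured heat shock genes in each of the 27 libraries, in order of library number within the 16 libraries up to 31 and the 11 from 32; the horizontal line is the median of a block. The blocks overlap for all 8 genes, and Hspa5 reaches from 3780.3 to 5736.

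All 8 genes varied more between rats than read counting gives (chi-square dispersion test against Poisson, adjusted p under 0.05 by the Benjamini-Hochberg method over 11730 genes), but so did 89.8% of all genes tested, so this is not particular to them. Counting made up 1.11% of the variance of Hsp90aa1 and 21.5% of that of Dnajb1, with the other 6 between. The SD of log2(normalized count + 1) was 0.12 for Hsph1, 0.11 for Dnajb1 and 0.18 for Hsp90aa1, and 0.10 for Hspa8, 0.09 for Hsp90ab1, 0.16 for Hspa5, 0.10 for Hspd1 and 0.15 for Hspe1. The median SD was 0.12 in the inducible class (n = 3) and 0.10 in the constitutive class (n = 5), and the ranges of the classes overlapped (0.11 to 0.18 against 0.09 to 0.16). Inducible and constitutive forms thus could not be separated by their spread in these resting rats.

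Spread falls with the level of a gene, so the 8 genes were placed among the 4035 genes whose mean normalized count reached 500. The median SD in that class was 0.14. Mean counts still differ widely within it, and Hspe1, with a mean normalized count of 571, lies near its lower limit. Hsp90ab1 stood at the 15.1th percentile of SD, Hspd1 at the 17.1th, Hspa8 at the 20.1th, Dnajb1 at the 25.8th and Hsph1 at the 32.4th. Hspe1 stood at the 61.0th, Hspa5 at the 66.0th and Hsp90aa1 at the 74.97th. The cytosolic Hsp90 genes therefore lay far apart, the constitutive one among the less variable genes and the stress-responsive one among the more variable. Hspe1 was more variable than its partner Hspd1, which had a higher mean count (1678). The 13 immediate early genes had SDs from 0.27 (Nr4a3) to 0.74 (Npas4), all above those of the 8 heat shock genes. Their highest library exceeded the lowest 5.61-fold for Npas4, 5.22-fold for Fos and 4.41-fold for Arc. Several of them, such as Fos, Egr2 and Npas4, had mean counts under 500, so this comparison is not at a like level.

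**Figure D2:**
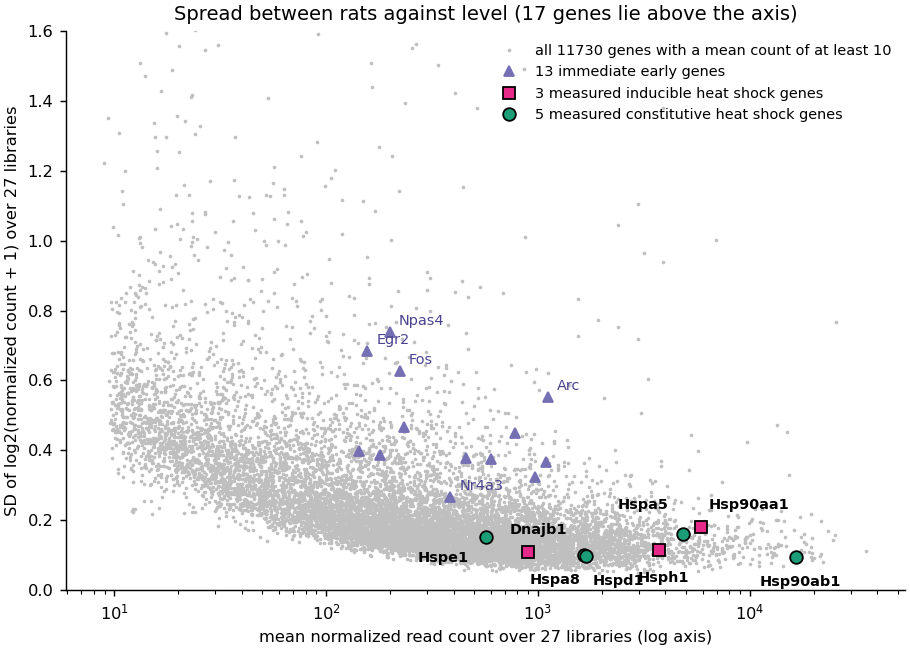
SD of log2(normalized count + 1) over the 27 libraries (vertical axis) against the mean normalized count (horizontal log axis) for 11730 genes, with the 3 inducible (squares) and 5 constitutive (circles) heat shock genes and the 13 immediate early genes (triangles). All 8 heat shock genes lie at SDs of 0.18 or less, below every immediate early gene.

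Some reads of these genes can be lost to copies. The table holds 28 rows for Hspa8 pseudogenes, 19 for Hsp90ab1, 18 for Hspd1, 15 for Hsp90aa1 and 1 for Hspe1, and all of them were at 0 in every library. Whether reads that match a gene and its copies were dropped before counting was not tested, and the levels of these 5 genes are uncertain to that extent. No transcript lengths were at hand, so levels are not compared between genes.

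The relation of the heat shock genes to recent neuronal activity was read from an immediate early gene score, the mean z score of 13 genes (Fos, Fosb, Junb, Egr1, Egr2, Egr3, Egr4, Arc, Npas4, Nr4a1, Nr4a3, Ier2 and Dusp1). The score ran from −0.94 in library 35 to 1.63 in library 12. None of the 8 heat shock genes followed it in edgeR's quasi-likelihood test across all genes (0 of 8, with 0.0418% of 11951 other genes called). At an unadjusted p under 0.05, 353 genes passed edgeR, and DESeq2 called 7 genes and none of the 8. The slopes of the 8 were all small: the largest was that of Hsph1, a log2 change of 0.05 per SD of the score (SE 0.02, 95% interval 0.01 to 0.10, adjusted p = 0.999), followed by Hspa5 with 0.05 (95% interval −0.01 to 0.11). Dnajb1 had a slope of 0.03 (95% interval −0.02 to 0.07), and the other 5 had slopes between 0.005 and 0.011. The upper bounds of the intervals of the 8 heat shock genes were 0.11 or less. The slopes of the 13 genes that make up the score are fixed by its construction and are drawn only to describe it.

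**Figure D3:**
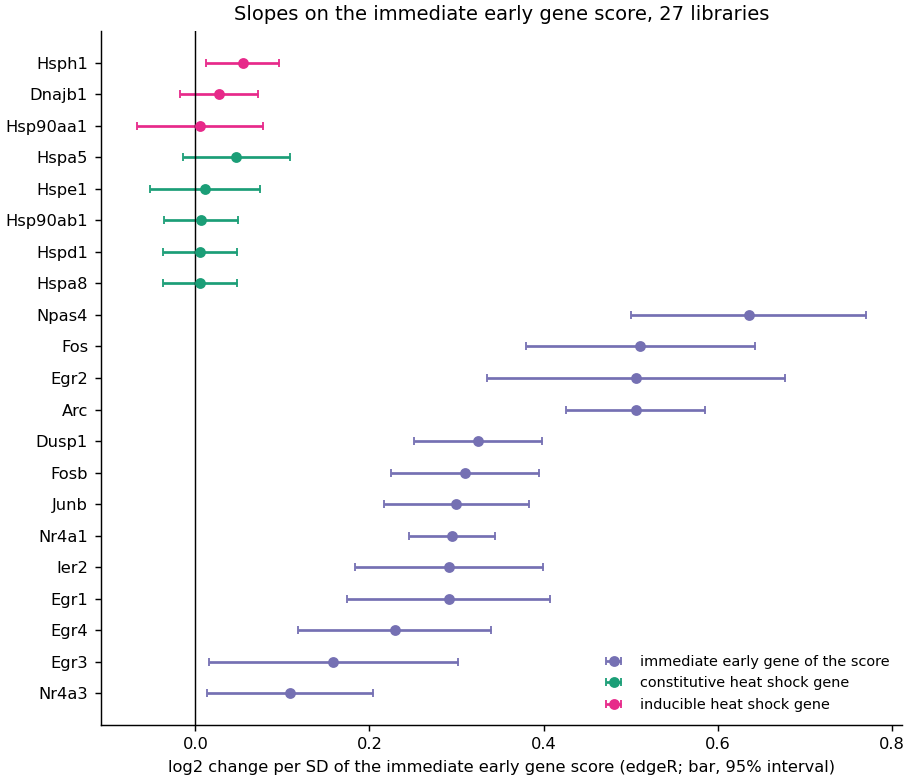
Log2 change per SD of the immediate early gene score (horizontal axis, edgeR, bars are 95% intervals) for the 13 genes that make up the score, 5 constitutive and 3 inducible heat shock genes over 27 libraries. The heat shock slopes lie between 0.005 and 0.05; the slopes of the 13 score genes follow from how the score is made and are no independent comparison.

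Correlations with the score also placed Hsph1 first. Hsph1 had a Spearman's rho of 0.39 with the score (permutation p = 0.048) and a Pearson's r of 0.46 (permutation p = 0.014), unadjusted, and it was the 1 gene of 8 relations under 0.05. It rested in part on libraries 12 and 31, the pair farthest from the median score: without them rho was 0.23 (permutation p = 0.27) and r was 0.27 (permutation p = 0.20). Without library 3 rho was 0.42 (permutation p = 0.033) and r was 0.55 (permutation p = 0.0036), and with block means removed rho was 0.40 (permutation p = 0.042) and r was 0.48 (permutation p = 0.010). Within the blocks rho was 0.26 in libraries up to 31 (n = 16, permutation p = 0.33) and 0.50 from 32 on (n = 11, permutation p = 0.12), where r was 0.46 (permutation p = 0.075) and 0.57 (permutation p = 0.068). The other 7 genes had rho between −0.001 and 0.25. Hspa8 (rho −0.001) and Hsp90ab1 (rho 0.08) were the nearest to 0.

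Hsp90aa1 showed opposite slopes in the blocks, a log2 change of −0.05 per SD of the score in the 16 libraries up to 31 and 0.10 in the 11 from 32 on. The difference between the slopes was 0.15 (SE 0.07, 95% interval 0.01 to 0.30) with an adjusted p of 0.977 in edgeR, so it did not pass. No gene of 12108 passed this interaction test in edgeR (595 at an unadjusted p under 0.05), and none in DESeq2. Outside the score itself, 5 genes followed it, all higher, and none of them is a chaperone: Ccn1, Btg2, Trib1, Gadd45g and Dusp6, with log2 slopes of 0.18 to 0.92, named here because the list is this short. The wider chaperone lists gave no calls on the score, with 0 of 28 measured cytosolic partners and heat shock factors, 0 of 17 ER chaperones, 0 of 7 mitochondrial chaperones and 0 of 8 subunits of the cytosolic chaperonin TRiC. Their median slopes were 0.01, 0.03, −0.001 and −0.001, with 0.001 over all genes.

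Pooled over all rats, 27 of the 28 pairs of the 8 genes had a positive rho, with a median of 0.31, where the median over all pairs of the same 4035 genes was 0.01. The blocks differed in this. Within the 16 libraries up to 31, 10 of the 28 pairs were negative, with a median of 0.08 (0.01 over all gene pairs) and the lowest at −0.54 for Hspa8 and Hspe1. Within the 11 libraries from 32 on all 28 were positive, with a median of 0.56 (0.04 over all gene pairs). The difference between the blocks was not tested. The pooled median was 0.20 over the 3 inducible pairs, 0.39 over the 10 constitutive pairs and 0.32 over the 15 mixed pairs. The closest pair joined the Hsp70 of the ER with the Hsp60 of mitochondria, Hspa5 and Hspd1 (rho 0.73, r 0.67, permutation p = 0.00007 and 0.0002). Hsp90ab1 correlated with both of them (rho 0.69 with Hspa5 and 0.62 with Hspd1), and Hsp90aa1 with the 2 mitochondrial genes (rho 0.62 with Hspd1 and 0.52 with Hspe1). Many other genes lay closer than these partners. Among 11729 genes, Hspd1 ranked 29 and Hsp90ab1 66 by rho to Hspa5. By rho to Hsp90ab1, Hspa5 ranked 201 and Hspd1 449, and by rho to Hsp90aa1, Hspd1 ranked 197 and Hspe1 507. The paralogs Hsp90aa1 and Hsp90ab1 were less alike at rho 0.29 (r 0.25, permutation p = 0.20). Hspd1 and Hspe1, which share the element printed above, had a rho of 0.31 (permutation p = 0.12) and an r of 0.46 (permutation p = 0.015), which was 0.37 (permutation p = 0.064) without library 3. Without that library all 28 pairs were positive, with a median rho of 0.32. Values of 28 pairs are unadjusted, and all genes share the library and its scaling.

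With block means removed the median rho was 0.13 over the inducible pairs, 0.43 over the constitutive pairs and 0.20 over the mixed pairs. With the block mean taken out of both genes, rho fell from 0.73 to 0.44 for Hspa5 and Hspd1, from 0.69 to 0.42 for Hsp90ab1 and Hspa5 and from 0.62 to 0.47 for Hsp90ab1 and Hspd1. Hsp90aa1 and Hspd1 did not lose by it, at 0.62 pooled and 0.64 without the block means, with 0.71 within libraries up to 31 and 0.53 within those from 32. Hsp90aa1 and Hspe1 stood at 0.52 and 0.54 in the same comparison. Hspa8 and Hsp90ab1, the main constitutive cytosolic pair, had 0.51 pooled and 0.61 without the block means, but r fell from 0.48 to 0.37 (permutation p = 0.072) without libraries 42 and 52 and was 0.66 (permutation p = 0.00023) without library 3. Hsph1 and Hspa8, which act in 1 cycle, had rho 0.46 pooled and 0.52 without the block means, but r fell from 0.52 to 0.35 (permutation p = 0.086) without libraries 3 and 12.

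**Figure D4:**
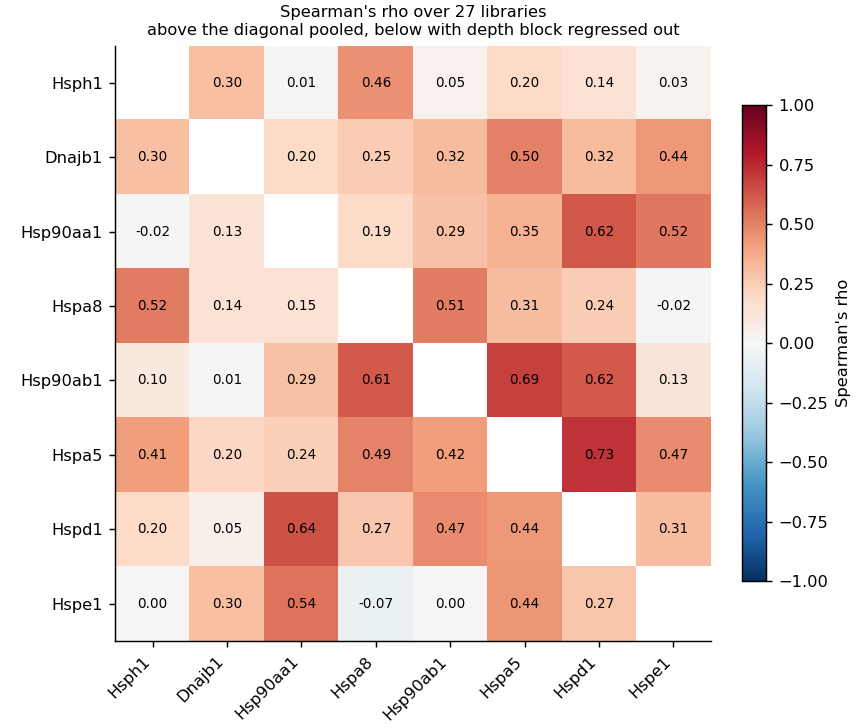
Spearman's rho between each pair of the 8 measured heat shock genes over 27 libraries, pooled above the diagonal and with block means removed below it; colour runs from −1 to 1. Hspa5 and Hspd1 fall from 0.73 to 0.44, while Hsp90aa1 and Hspd1 stand at 0.62 and 0.64.

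To ask which other genes moved with a chaperone, the level of Dnajb1, Hspa5 or Hspd1 was used in turn as the covariate of an edgeR fit over all genes. No gene of 12026 followed Dnajb1 at an adjusted p under 0.05 (edgeR, with 1347 at an unadjusted p under 0.05, and 4 genes in DESeq2). The largest slope on Dnajb1 among the other heat shock genes was that of Hspa5, a log2 change of 0.09 per SD of Dnajb1 (SE 0.03, adjusted p = 0.361 in edgeR). Hsph1, the other cofactor of the Hsp70 cycle, had a slope of 0.02 (SE 0.02, adjusted p = 0.703 in edgeR), and Hsp90aa1 one of 0.03 (SE 0.03, adjusted p = 0.776 in edgeR). With no gene called at all, these values say nothing particular to the inducible forms.

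Hspa5 was followed by genes of its own compartment and by genes outside it. Of the other 7 heat shock genes, 3 were higher with Hspa5, where 4.6% of 11963 genes were called, 2.83% higher and 1.77% lower. They were Hspd1 (a log2 change of 0.07 per SD of Hspa5, SE 0.02, adjusted p = 0.025), Hsp90ab1 (0.06, SE 0.02, adjusted p = 0.032) and Dnajb1 (0.06, SE 0.02, adjusted p = 0.047), and Hspe1, with 0.08 (SE 0.03, adjusted p = 0.062), was called by DESeq2 but not by edgeR. Hspd1 kept its call with other size factors and without the filter on low counts, Dnajb1 lost its own in both and Hsp90ab1 without the filter. Of the 17 ER chaperones, 8 were higher and none lower, with a median slope of 0.08 against 0.006 over all genes. The steepest of them were Pdia4, a disulfide isomerase (0.15), Manf, an ER stress-induced secreted factor (0.13), and Calr, a lectin chaperone (0.11). Of the cytosolic partners 8 of 28 were higher, led by Hspa1l (0.36), Chordc1 (0.15) and Cacybp (0.12), and of TRiC 3 of 8 (Cct4 0.09, Cct2 0.08 and Cct3 0.06). Hspa1l overlaps Hspa1a in the gene list and its reads are uncertain. Among the immediate early genes 3 of 13 were higher with Hspa5, namely Egr2 (0.44), Fos (0.35) and Nr4a3 (0.18). Of the 3 blood markers 2 were lower with Hspa5, Hba-a1 (−0.38, adjusted p = 0.026) and Alas2 (−0.32, adjusted p = 0.041), and no marker of the other 7 cell type lists was called. The part of blood content in these calls was not tested.

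Most of these calls were lost with the depth block as a term. With this term 2 genes followed Hspa5, and both were ER chaperones, Hsp90b1 (0.10, SE 0.02, adjusted p = 0.026) and Pdia4 (0.12, SE 0.02, adjusted p = 0.030). Hspd1 (0.05), Hsp90ab1 (0.04) and Dnajb1 (0.05) kept a positive slope but lost their calls, and so did the 3 immediate early genes. Within either block no gene passed. With the block term 16 of the 17 ER chaperones had a positive slope, with a median of 0.07. Within the libraries up to 31 and from 32, 17 of 17 and 15 of 17 had one. The share of all genes with a positive slope is not set beside these counts, so they are only descriptive. Without library 3, 309 genes followed Hspa5 in place of 550. Dnajb1 then missed the threshold (adjusted p = 0.058), Hspd1 and Hsp90ab1 kept their calls, and 8 of the 17 ER chaperones were higher, the same genes as with all libraries, while Hspa1l, Cct2 and Cct3 were no longer called.

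Hspd1 was followed by many more genes, with 19.2% of 11920 called, 10.8% higher and 8.42% lower. Of the other 7 heat shock genes, 4 were higher, with log2 changes per SD of Hspd1 of 0.11 for Hsp90aa1 (SE 0.03, adjusted p = 0.0053), 0.11 for Hspa5 (SE 0.02, adjusted p = 0.0029), 0.07 for Hsp90ab1 (SE 0.02, adjusted p = 0.0071) and 0.08 for Hspe1 (SE 0.03, adjusted p = 0.037). Hsph1 (0.001) and Hspa8 (0.02) were not called. TRiC, the chaperonin of the cytosol, moved with the chaperonin of mitochondria: 7 of its 8 subunits were higher, led by Cct4 (0.10), Cct2 (0.09) and Tcp1 (0.09), and the other one, Cct5, had a slope of 0.04 (adjusted p = 0.077). Of the ER chaperones 6 of 17 were higher, led by Dnajb9 (0.11), Canx (0.09) and Hsp90b1 (0.08). Of the cytosolic list 8 of 28 were higher, led by Cacybp (0.14), Chordc1 (0.13) and Dnaja1 (0.12), and Hsf1, the heat shock factor itself, was the 1 that was lower (−0.09). The other mitochondrial chaperones and proteases were mixed, with Clpx higher (0.08), Lonp1 lower (−0.07) and 5 of 7 not called. Among the cell type markers the blood gene Hba-a1 (−0.28, adjusted p = 0.048) and the mural Pdgfrb (−0.12, adjusted p = 0.049) were lower with Hspd1, and their part in these calls was not tested.

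With the depth block as a term 201 genes followed Hspd1, and of the heat shock genes Hsp90aa1 alone kept its call, with a log2 change of 0.15 per SD of Hspd1 (SE 0.03, adjusted p = 0.023). Hspa5 (0.08, adjusted p = 0.123), Hspe1 (0.07, adjusted p = 0.244) and Hsp90ab1 (0.05, adjusted p = 0.171) kept a positive slope without a call. No ER chaperone kept its call on Hspd1 with this term. The nearest in edgeR were Hsp90b1 (0.07, adjusted p = 0.051) and Dnajb9 (0.08, adjusted p = 0.064). The slopes of Hyou1, Creld2, Dnajb11 and Dnajc3, not called before, turned negative. The slope of Hsp90aa1 was 0.13 within libraries up to 31 and 0.24 within those from 32, not called in either (adjusted p = 0.134 and 0.839). Without library 3 the slope of Hsp90aa1 was 0.10 (adjusted p = 0.024), Hsp90ab1 and Hspa5 kept their calls, and Hspe1 lost its own at 0.05 (adjusted p = 0.187), as it did without the filter on low counts. Of TRiC 1 of 8 (Cct8, 0.08, adjusted p = 0.040) was called with the block term, where 1.02% of all genes were called higher, and 6 of 8 without library 3, where 6.93% were. All 8 slopes were positive in both, with a median of 0.06 with the block term and 0.07 without library 3. The share of all genes with a positive slope is not set beside this count either.

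**Figure D5:**
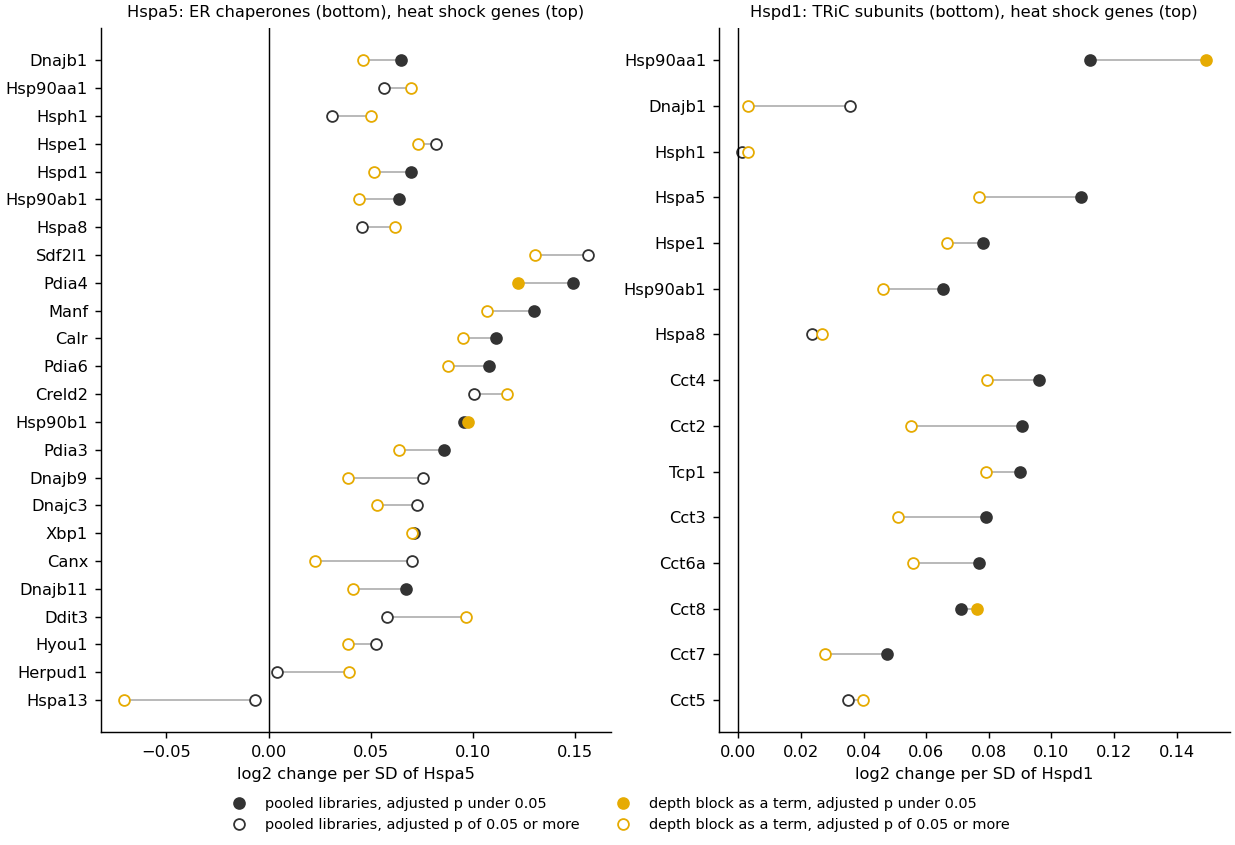
Log2 change per SD of Hspa5 (left) and of Hspd1 (right) for the heat shock genes (upper rows) and for the ER chaperones or TRiC subunits (lower rows); black points are pooled libraries, yellow points have the depth block as a term, and filled points have an adjusted p under 0.05. Hsp90b1 and Pdia4 stay filled on the left and Hsp90aa1 and Cct8 on the right.

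The difference between the blocks was then measured for the 8 genes themselves. Of these, 3 were lower in the libraries from 32 on than in those up to 31, and none was higher, where 9.18% of 11716 genes were called lower and 8.85% higher (2112 genes in all). Hspa5 was lower by the most, with 4462 ± 486 against 5089 ± 361 normalized counts (mean ± SD, n = 11 and 16) and a log2 difference of −0.19 (SE 0.05, adjusted p = 0.0079). Hspd1 had 1600.48 ± 63.1 against 1731 ± 112 and a log2 difference of −0.11 (SE 0.03, adjusted p = 0.021). Hsp90ab1 had 15782.5 ± 738 against 17026 ± 1001 and a log2 difference of −0.11 (SE 0.03, adjusted p = 0.021). All 3 are constitutive forms, and the call of Hsp90ab1 was lost without the filter on low counts. Dnajb1 had a log2 difference of −0.11 (adjusted p = 0.054) and was called by DESeq2, and Hspe1 one of −0.11 (adjusted p = 0.207). Hsph1 (0.01), Hspa8 (−0.01) and Hsp90aa1 (−0.03) were near 0, with 95% intervals of −0.08 to 0.10, −0.09 to 0.07 and −0.17 to 0.11.

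Other chaperones differed in the same direction, but the mitochondrial list did so little. Of its 7 measured genes 2 were lower and 0 higher, with a median log2 difference of −0.01, against −0.12 for the ER chaperones. Of the 17 ER chaperones 8 were lower from 32 on and none higher, led by Pdia4 (−0.22), Manf (−0.19) and Canx (−0.17), and of TRiC 4 of 8 were lower (Cct2 −0.18, Cct3 −0.15 and Cct4 −0.14 the furthest). Of the 28 cytosolic partners 8 were lower and 1 higher, with Hspa1l (−0.97) and Chordc1 (−0.21) lower and Hspb6 (0.27) higher. Of the immediate early genes Egr2 (−0.74), Nr4a3 (−0.39) and Junb were lower and Egr4 (0.41) was higher. Cell type markers differed too: of the markers in the 8 cell type lists, the neuronal Rbfox3 was higher from 32 on (0.16, adjusted p = 0.018) and the macrophage gene Mrc1 was lower (−1.52, adjusted p = 4.4e-05), and their part in the chaperone differences was not tested. The blocks were drawn by library number and differ in depth, and depth, cohort, handling and the animals cannot be told apart here.

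The make-up of the tissue pieces was checked with 8 marker scores. The neuron marker score was followed by 27.7% of 12213 genes (13.3% higher and 14.4% lower), and 3 of the 8 heat shock genes were among them. Hsph1 rose with it by a log2 change of 0.08 per SD (SE 0.02, adjusted p = 0.0012) and Hspa8 by 0.06 (SE 0.02, adjusted p = 0.016), whereas Hspe1 fell by 0.09 (SE 0.02, adjusted p = 0.0047). The same 3 were called by DESeq2 and with the depth block as a term. All 3 calls were lost without library 3, where 940 genes followed the score and the slopes were 0.07 (adjusted p = 0.082), 0.06 (adjusted p = 0.11) and −0.07 (adjusted p = 0.22). Library 3 also held the lowest Hsph1 and the highest Hspe1. None of the 8 followed any of the other 7 scores in edgeR. The share of all genes that did was 2.57% for meningeal fibroblasts, 2.36% for astrocytes, 1.85% for blood, 1.36% for oligodendrocytes, 0.807% for microglia and macrophages, 0.753% for endothelial and mural cells and 0.0413% for striatal tissue. The nearest were Hsp90ab1 (−0.06, adjusted p = 0.050) and Hspa5 (−0.09, adjusted p = 0.054) with the blood score, both of which DESeq2 called lower. The part of tissue make-up in the pair relations was not tested.

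The genes most like each heat shock gene across the 27 libraries, by Spearman's rho among 11729 genes, are given next. For Hspa5 3 of the nearest 5 were ER disulfide isomerases: Pdia3 (0.83), Pdia6 (0.82) and Pdia4 (0.80), together with Snrpd1 (0.81) and Rab1a (0.80). For Hspd1 the nearest were Smarca5 (0.85), Ythdc1 (0.84), Dnaja1 (0.84), a J-domain partner of Hsp70, Rpe (0.83) and Capza2 (0.82). For Hsp90ab1 they were Rnf103 (0.87), Nxph1 (0.87), Ube2g1 (0.85), B3galnt1 (0.85) and the TRiC subunit Cct4 (0.83).

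The other 5 had no listed chaperone among their nearest 5 genes over all libraries. Hsp90aa1 was nearest to Cwf19l2 (0.90), Esf1 (0.88), Polr1f (0.87), Eif2s2 (0.87) and Sec62 (0.86). Hspe1 was nearest to Atp5mf (0.86), a subunit of ATP synthase, and to Alkbh7 (0.83), Psmd4 (0.82), Ubxn1 (0.81) and Mt3 (0.81). Hspa8 was nearest to Rhot1 (0.82), Klhdc2 (0.81), Jkamp (0.80), Ndufs1 (0.80) and Gucy1b1 (0.80). The lowest top values were those of the inducible cofactors: Hsph1 was nearest to Inka2 (0.78), Nrdc (0.76), Pdcd4 (0.76), Cobl (0.72) and Zbtb8b (0.70), and Dnajb1 to Ccne1 (0.75), Ubl4a (0.75), Hmox2 (0.72), Rilpl2 (0.71) and Tmub2 (0.71). Without library 3 the nearest 5 were the same genes for Hsp90aa1 and Hspe1, 4 of 5 were shared for Hsph1, Dnajb1 and Hspd1, 3 of 5 for Hspa8 and Hspa5, and 2 of 5 for Hsp90ab1. Cct4 then left the nearest 5 of Hsp90ab1, Pdia4 was replaced among those of Hspa5 while Hsp90b1 led them, and Stip1, a cochaperone of Hsp70 and Hsp90, entered those of Hsph1.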

How the data were processed

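RNA from the mPFC of 27 rats (male, Wistar) was read by single-end sequencing. The deposited values are raw counts of reads per gene, made by the authors without normalization. The submitters' processing notes name Trimmomatic, STAR and HTSeq without roles. The genome build, annotation and strandedness are not given in the sources used here, so overlapping genes are uncertain. Rows were named by NCBI gene ID from the RefSeq gene list (GRCr8), which matched 28157 of 36865 rows. Promoter windows are RefSeq's (GRCr8).

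Levels are counts divided by DESeq2 (version 1.42.0) median-of-ratios size factors. Log values are log2(normalized count + 1). Scores are mean z scores of log values, scaled to SD 1 as covariates, since the study also regressed counts on continuous covariates. Tests across genes were edgeR's (version 4.0.16) quasi-likelihood tests in R 4.3.3 after TMM and filterByExpr. The threshold was a Benjamini-Hochberg adjusted p under 0.05 over all genes tested, the covariate's own genes included. Those genes were left out only of the counts of genes called. So the score genes, whose slopes are fixed by construction, were part of the adjustment. DESeq2's Wald test was the alternative. Spread was tested for the 11730 genes whose mean count reached 10. Correlations used 2-sided permutation tests (100000 permutations, Python 3.11.15, scipy 1.17.1). The fits were tested on simulated data whose slopes were larger than those of the heat shock genes on the score. These runs cannot show whether slopes of that smaller size would be found. Alternatives were other scalings, no filter, a block term, single blocks, Fos or Arc alone, and libraries left out.

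The genes and lists were chosen with earlier results of these data known. Named are the 10 genes, the score genes, up to 3 genes with the steepest slopes of a list, and the 5 genes most like each heat shock gene. Others were named after their values were seen. A fit on Hspa1b was planned, but no row carries its gene ID, so Dnajb1 replaced it. The Dnajb1 fits, marker scores, pairs and library 3 were added after the data were seen. Intervals cover these rats only, and depth limits cover counting error only: at the lowest total, 3 counts are 6.11e-05% of a library.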

Additional observations from a re-analysis of the deposited data

How the results depend on the processing

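Of the counts of genes, those for spread beyond counting and for the depth blocks stayed within 1.5 times in the alternatives run (10537 and 2112 genes). The 5 genes following the immediate early gene score became 3 without the 2 farthest libraries, 3 in libraries up to 31, 0 from 32 on and 59 with Fos alone. Genes following Dnajb1 went from 0 to 4 with DESeq2. Those following Hspa5 (550) became 963 with DESeq2, 318 without a filter, 309 without library 3, 185 without the 2 farthest libraries, 2 with the block term and 0 in each block. Those following Hspd1 (2288) became 201 with the block term, 1 up to 31 and 0 from 32 on. The cause was not tested, but single blocks hold fewer libraries.

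No heat shock gene was called on the immediate early gene score in any of these alternatives, and slopes near 0 changed sign. With the block term they were −0.0028 for Hsp90ab1 and −0.0038 for Hspd1. Without the 2 farthest libraries they were −0.011 for Hspa8, −0.017 for Hsp90ab1 and −0.016 for Hspd1. Up to 31 they were −0.054 for Hsp90aa1, −0.012 for Hspa8, −0.018 for Hsp90ab1, −0.019 for Hspd1 and −0.027 for Hspe1. With Fos alone Hspa8 had −0.0057, and with Arc alone Hsp90aa1 had −0.0099, Hspd1 −0.0041 and Hspe1 −0.024. On Hspa5, Dnajb1 had −0.0040 up to 31. The rho with the score was 0.023 for Hspa8 with total counts and −0.0012 for Hspd1 without block means. The planned fits on Hspa1b could not be run. No paired analysis was possible because all libraries belong to 1 group.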
